A study of Homo sapiens with 8 samples.

Results

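A set of 10 imprinted growth genes was followed across normal and inflamed human intestinal epithelial cells (hIECs) with and without particulate matter 10 (PM10). They were H19, IGF2, DLK1, MEG3, PEG3, PEG10, CDKN1C, MEST, PLAGL1 and GRB10, taken by gene symbol. They make up 10 of the 60558 genes quantified, and 8 of them were above 0 in at least 1 library. The set was chosen by measured values, the lower FPKM of H19, IGF2 and DLK1 in inflamed than in normal hIECs without PM10, so that contrast is described here without a test of its members. The H19-IGF2 and DLK1-MEG3 loci, which hold 4 of the 10 genes, were set against the other 6.

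The cells were differentiated from the H9 human embryonic stem cell line, so every library shares 1 genetic background, and the labels give 10 days of treatment throughout. Poly-A selected, non-stranded RNA-seq libraries were made from 4 groups of 2 libraries, covering the normal and the inflamed state, each without and with PM10. The inflamed state was brought about with the cytokines IFNγ and TNFα, and PM10, airborne particles small enough to be inhaled, was added during the later part of that treatment. Values are FPKM, fragments scaled by transcript length and library size, which compare levels between genes per length. The sources used here do not say whether the 2 libraries of a group came from separate cultures, so each p-value measures the spread between libraries, which may be technical.

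Imprinted genes are transcribed mainly from the copy inherited from 1 parent. They are governed by control regions that carry DNA methylation, laid down in the germ line, on 1 parental copy. H19, a long non-coding RNA expressed from the maternal copy, and IGF2, a fetal growth factor expressed from the paternal copy, share enhancers that are partitioned by a methylation-sensitive insulator between them. At the DLK1-MEG3 locus, DLK1, RTL1 and DIO3 are expressed from the paternal copy, and the non-coding RNAs MEG3, MEG8 and MEG9 from the maternal copy. Many of these genes are abundant in fetal and mesenchymal tissues and decline after birth.

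The FPKM of a library summed to between 403354 and 468392, and between 16547 and 18926 genes were above 0. The lowest value above 0 was between 0.164 and 0.228 FPKM. Counts were not used here, so no counting interval is given. Mitochondrially encoded genes took 17.02% and 24.2% of the summed FPKM in normal hIECs, against a range of 15.5% to 20.4% elsewhere. Among the epithelial markers, CDX2, VIL1 and CLDN7 were listed at 0 in all 8 libraries, EPCAM was at most 0.622 FPKM and CDH1 was above 0 in 1 library only, whereas all 12 mesenchymal markers were expressed, with sums of 4837 to 6329 FPKM. In these libraries the epithelial label of the cells was thus not borne out by those defining markers, although the keratins KRT8 and KRT18 were at 100.1 FPKM or more throughout. The study itself reported CDX2 and VIL1 in its hIECs by quantitative PCR and immunostaining, and the difference from the values here was not examined.

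The sequences below show what lies at these genes. H19 carries a microRNA within exon sequence, and its mature arms were taken from RefSeq (GRCh38.p14), with the seed, bases 2 to 8, in capitals. The 5p arm lies on the minus strand at chr11:1996800-1996822 and the 3p arm at chr11:1996768-1996787, and their seeds differ.
miR-675-5p: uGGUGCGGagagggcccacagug
miR-675-3p: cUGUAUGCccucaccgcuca
These poly-A libraries do not measure mature microRNAs, and the MIR675 precursor was listed at 0 in 7 libraries and at 0.350 FPKM in inflamed replicate 1.

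RefSeq promoter windows of 300 bases, from 250 before to 50 after a transcript start, were found for 5 of the 10 genes: H19, MEG3, MEST, PLAGL1 and GRB10. IGF2, DLK1, PEG3, PEG10 and CDKN1C are named only. Windows of H19, MEG3 and MEST are shown because these are the gene with the widest range of levels, a gene listed at 0 throughout, and a gene that stayed high in all groups. Each CpG, the dinucleotide at which DNA methylation is carried, is in capitals. Whether a window shown is the imprinted promoter of its gene, or part of an imprint control region, was not examined. The windows are chr11:2001217-2001516 on the minus strand for H19, chr14:100825858-100826157 on the plus strand for MEG3 and chr7:130486097-130486396 on the plus strand for MEST (GRCh38.p14). The H19 window marks a start inside the annotated gene, upstream of the microRNA, and other starts of H19 are not shown.
H19: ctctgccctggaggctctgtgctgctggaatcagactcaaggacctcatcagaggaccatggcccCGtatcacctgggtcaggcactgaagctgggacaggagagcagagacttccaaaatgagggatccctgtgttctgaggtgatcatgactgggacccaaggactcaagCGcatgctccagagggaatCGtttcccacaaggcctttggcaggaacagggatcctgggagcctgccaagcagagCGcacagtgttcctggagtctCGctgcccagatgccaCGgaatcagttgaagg
MEG3: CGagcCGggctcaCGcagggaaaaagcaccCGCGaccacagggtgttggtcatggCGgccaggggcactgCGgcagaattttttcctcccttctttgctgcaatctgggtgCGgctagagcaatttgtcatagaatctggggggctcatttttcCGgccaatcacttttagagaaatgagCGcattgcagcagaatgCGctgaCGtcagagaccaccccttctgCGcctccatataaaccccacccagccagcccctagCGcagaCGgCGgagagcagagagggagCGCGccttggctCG
MEST: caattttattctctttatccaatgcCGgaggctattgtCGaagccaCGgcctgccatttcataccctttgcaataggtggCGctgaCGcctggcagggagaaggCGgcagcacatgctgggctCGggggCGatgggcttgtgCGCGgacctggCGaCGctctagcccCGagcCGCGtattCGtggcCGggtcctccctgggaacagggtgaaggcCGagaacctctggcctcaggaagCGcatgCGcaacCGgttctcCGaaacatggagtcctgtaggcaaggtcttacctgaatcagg
The H19 window held 6 CpG, against 19 in the MEG3 window, 22 in the MEST window and a median of 14 over all promoter windows of that length. Motifs bound by cytokine-activated factors were searched on both strands, the interferon gamma activated site TTCNNNGAA and a form of the interferon-stimulated response element, GAAA and GAAA with any 2 bases between them. The former was present in 7.66% and the latter in 3.57% of all windows. The table holds 19 windows for these genes, 5 of them for MEST, 3 for MEG3 and 1 for H19, and the MEST and MEG3 windows shown are 1 of each set. The MEST window shown held 1 match to the former motif, the other 4 MEST windows, with 13 to 25 CpG, held none, and 1 of 5 PLAGL1 windows held 1. No H19, MEG3 or GRB10 window matched either motif. No methylation was measured in these libraries.

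H19 ranked among the most abundant RNAs of normal hIECs and was low in inflamed hIECs. The gene lies on chromosome 11 from 1995166 to 2004552, minus strand (GRCh38). Its level was 1358 and 1829 FPKM in the normal libraries, 995 and 1023 FPKM with PM10, 19.98 and 15.3 FPKM in the inflamed libraries, and 5.58 and 5.38 FPKM in the inflamed libraries with PM10. No pair of groups overlapped, and the order was normal, normal with PM10, inflamed, inflamed with PM10. By mean FPKM H19 ranked 31 in normal, 52 in normal with PM10, 3239 in inflamed and 7532 in inflamed with PM10 hIECs.

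IGF2 had the same order at lower levels. It lies on the minus strand of chromosome 11 from 2129112 to 2158391. Its level was 161 and 223 FPKM in normal libraries, 132 and 134 FPKM with PM10, 8.67 and 8.50 FPKM in inflamed libraries, and 5.22 and 4.90 FPKM in inflamed libraries with PM10. Again no pair of groups overlapped, and the 2 normal libraries were farther apart than those of any other group. Within a library, the ratio of H19 to IGF2 FPKM was 8.45 and 8.18 in normal, 7.55 and 7.64 in normal with PM10, 2.31 and 1.80 in inflamed, and 1.07 and 1.10 in inflamed with PM10 hIECs. The pair of neighbouring genes therefore did not scale by a common factor. Exons of IGF2 overlap those of AC132217.1, which lies on the same strand, so reads from the shared stretch cannot be told apart. They also overlap those of the antisense transcript IGF2-AS, whose reads cannot be told apart without strand. AC132217.1 was at 17.3, 30.3, 11.2 and 40.2 FPKM in the 4 libraries without cytokines and listed at 0 in the 4 libraries with them. IGF2-AS was at 1.79 to 1.96 FPKM in the former and listed at 0 in the latter.

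DLK1, a membrane protein related to the Notch ligands that restrains differentiation, was also far lower under cytokines, but PM10 went with a higher level in normal hIECs and a lower level in inflamed hIECs. It lies on the plus strand of chromosome 14 from 100725705 to 100738224, with no exon shared with another gene. Its level was 122 and 142 FPKM in normal libraries, 163 and 166 FPKM with PM10, 5.16 and 5.35 FPKM in inflamed libraries, and 2.50 and 1.91 FPKM in inflamed libraries with PM10. The order was normal with PM10, normal, inflamed, inflamed with PM10, with no overlap between groups. MEG3, the maternal non-coding RNA of the same locus, from 100779410 to 100861031, was listed at 0 in all 8 libraries, as was the neighbouring MEG8. MEG9, the farthest of the 3 from DLK1, was at 3.04 and 5.35 FPKM in normal libraries and at 0.896 and 1.69 FPKM in inflamed libraries. None of 20 housekeeping genes was listed at 0 in any library. That check covers other genes only, so it does not bear on the zeros of MEG3 and MEG8.

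CDKN1C, an inhibitor of cyclin-dependent kinases that restrains growth from the maternal copy, had a smaller version of the DLK1 pattern. Its level was 26.7 and 26.4 FPKM in normal libraries, 32.6 and 35.9 FPKM with PM10, 5.96 and 7.32 FPKM in inflamed libraries, and 4.73 and 3.71 FPKM in inflamed libraries with PM10. The groups did not overlap. CDKN1C lies on chromosome 11 from 2883213 to 2885775, in a separate imprinted domain from H19 and IGF2.

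PEG10, a retrotransposon-derived placental gene, was at 29.2 and 39.0 FPKM in normal libraries, 32.0 and 35.8 FPKM with PM10, 18.4 and 32.5 FPKM in inflamed libraries, and 13.8 and 14.8 FPKM in inflamed libraries with PM10. Inflamed libraries overlapped normal ones, and only the inflamed group with PM10 stood below the rest. PLAGL1, a zinc finger protein that restrains proliferation, was at 18.0 and 14.1 FPKM in normal libraries, 18.7 and 18.7 FPKM with PM10, 9.87 and 12.4 FPKM in inflamed libraries, and 9.87 and 10.1 FPKM in inflamed libraries with PM10. Both inflamed groups lay below both normal groups and overlapped each other.

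MEST, a mesoderm-enriched hydrolase, stayed high in all 4 groups. Its level was 240.1 and 216 FPKM in normal libraries, 334 and 328 FPKM with PM10, 270.1 and 260.4 FPKM in inflamed libraries, and 213.1 and 213.1 FPKM in inflamed libraries with PM10. The highest group was normal hIECs with PM10 and the lowest, by a narrow margin, inflamed hIECs with PM10, and MEST remained between rank 171 and rank 248 of all genes. GRB10, an adaptor that dampens insulin and IGF receptor signalling, was the only member higher in both cytokine groups. Its level was 2.20 and 2.47 FPKM in normal libraries, 2.27 and 2.00 FPKM with PM10, 3.34 and 4.02 FPKM in inflamed libraries, and 3.31 and 3.50 FPKM in inflamed libraries with PM10. PM10 groups overlapped their counterparts without PM10. PEG3, a paternally expressed zinc finger gene on chromosome 19, was listed at 0 in all 8 libraries. PEG10 shares exon sequence with SGCE, MEST with COPG2 and PLAGL1 with HYMAI, so part of their reads could belong to the partner.

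**Figure D1:**
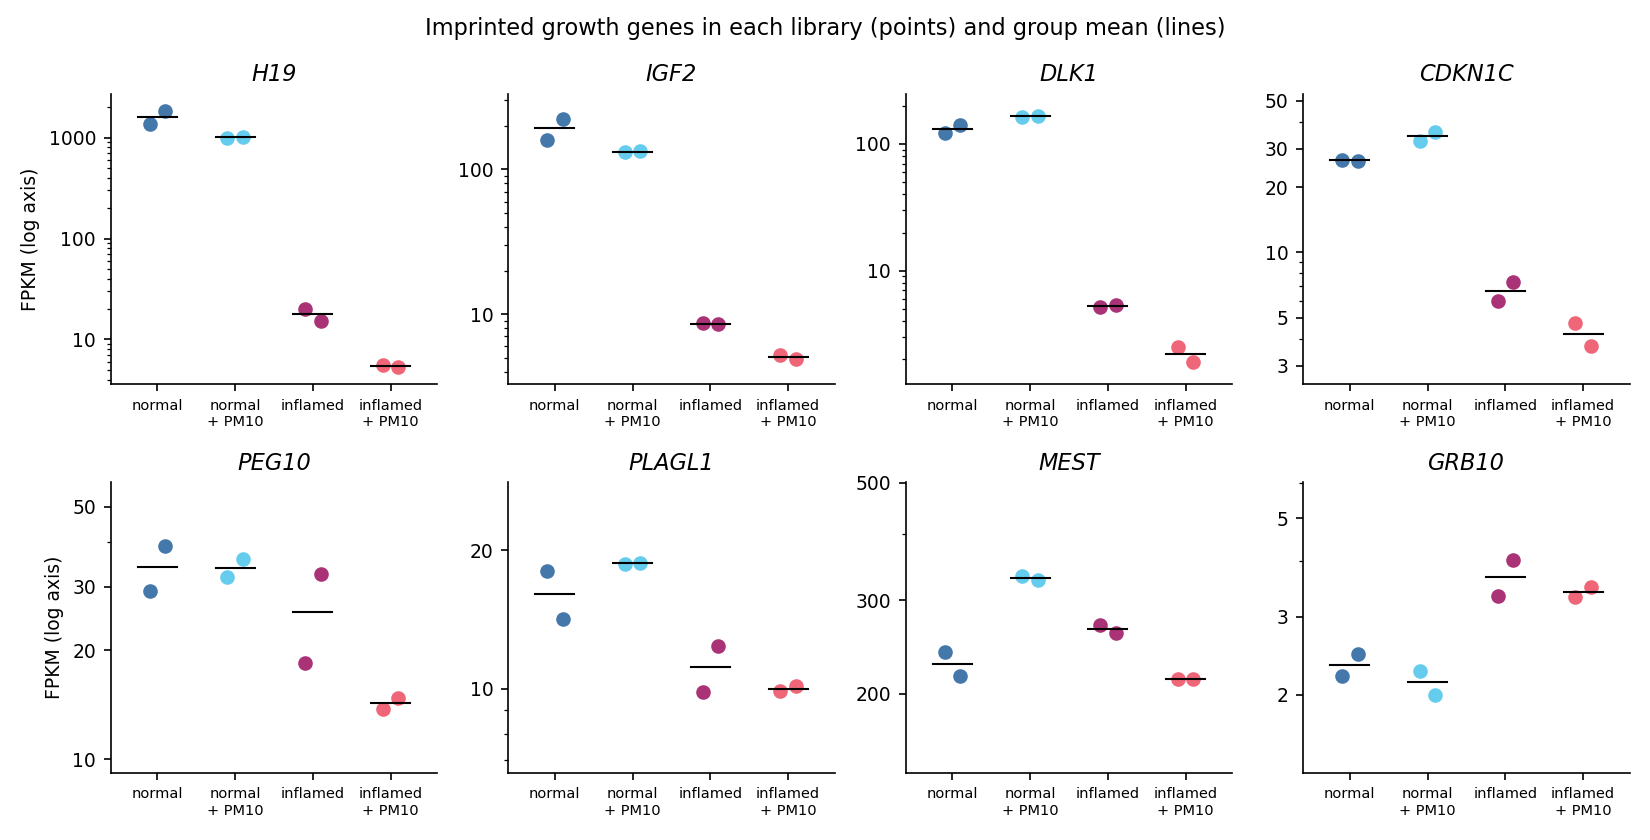
FPKM of the 8 expressed imprinted growth genes in each of the 8 libraries (points) with the group mean (line), on log axes whose range differs between panels. H19, IGF2 and DLK1 span the widest ranges, H19 from 5.38 to 1829 FPKM, while MEST lies between 213.1 and 334 FPKM throughout.

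In the contrast on which the members were chosen, inflamed against normal hIECs without PM10, the genes of the 2 loci had the largest ratios of the set. Mean H19 was 1593 ± 333 FPKM in normal and 17.7 ± 3.29 FPKM in inflamed libraries (SD, n = 2), a ratio 90.3-fold lower. The mean ratio was 22.4-fold lower for IGF2, 25.1-fold lower for DLK1 and 3.997-fold lower for CDKN1C. PLAGL1 was 1.44-fold and PEG10 1.34-fold lower, whereas MEST was 1.16-fold and GRB10 1.57-fold higher. On the log2(FPKM + 1) scale, 4 of the 8 expressed members were more than 2-fold lower, against 5.27% of all 14206 genes tested, a share from which nothing is read because the rule used this contrast. In bulk libraries, fewer cells that express a gene and less RNA per cell cannot be told apart.

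Other cell markers differed between the same groups. Summed epithelial markers were 641 to 652 FPKM in normal and 347 to 352 FPKM in inflamed libraries, 3 of the 10 being at 0 throughout and KRT8 and KRT18 making up nearly all of the sum. The summed neuronal markers were 212 to 222 FPKM in normal and 131 FPKM in both inflamed libraries, with 7 of 10 above 0. STMN2 was the largest part of the sum, with means of 118 and 53.2 FPKM. Of the 7, 5 were called lower and 1 higher, SYT1, with means of 2.67 and 5.07 FPKM. Summed mesenchymal markers were 5410 to 5458 FPKM in normal and 6258 to 6329 FPKM in inflamed libraries, 12 of 12 being above 0. They did not move together: TAGLN and ACTA2 were higher in inflamed libraries, COL3A1, PDGFRA and PDGFRB were lower, and in all 6 were called higher and 4 lower. Over all genes, 25.9% were called higher and 30.3% lower without PM10. Summed proliferation markers were 116 to 125 FPKM and 200.4 to 205 FPKM, respectively, with 8 of 8 above 0. In the PM10 libraries, the same sums were 598 to 636 and 287 to 305 FPKM for epithelial, 231 to 239 and 143 to 146 FPKM for neuronal, 4837 to 4851 and 5628 to 5636 FPKM for mesenchymal, and 91.8 to 97.8 and 182 to 183 FPKM for proliferation markers, in normal and inflamed hIECs respectively. Of 6 pluripotency markers, POU5F1, NANOG, LIN28A and TDGF1 were at 0 throughout, whereas DPPA4 was at 7.72 to 10.03 FPKM and DNMT3B at 0.622 to 1.77 FPKM. The 5 hepatoblast or yolk sac markers were all at 0. Their part in the differences of the imprinted genes was not tested.

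The cytokine difference was tested in the libraries with PM10, which the choice of genes did not use. The cytokine treatment was the same there, and the fit took its spread from all 8 libraries. The test is thus not independent of that choice. H19 fell from 1009 ± 20.1 to 5.48 ± 0.137 FPKM (SD, n = 2), 184-fold, and its difference was the most negative of all genes tested in this fit. On the log2(FPKM + 1) scale it was -7.28 (SE 0.152, limma adjusted p = 3.83e-08). DLK1 fell from 165 ± 2.67 to 2.20 ± 0.422 FPKM, 74.6-fold, with a log2 difference of -5.70 (SE 0.1002, adjusted p = 1.87e-08). IGF2 fell from 133 ± 1.56 to 5.06 ± 0.223 FPKM, 26.2-fold, with a log2 difference of -4.46 (SE 0.133, adjusted p = 2.27e-07). CDKN1C fell 8.12-fold (log2 difference -2.76, adjusted p = 1.24e-06).

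The remaining members changed less. PEG10 fell 2.37-fold (adjusted p = 0.00344), PLAGL1 fell 1.87-fold (adjusted p = 0.000767) and MEST fell 1.55-fold (adjusted p = 5.52e-05). GRB10 rose 1.60-fold (adjusted p = 0.00313). All 8 expressed members thus passed the test, 7 lower and 1 higher, where 39.6% of all genes were called lower and 25.8% higher. All 8 were above the filter of 1 FPKM in every library, so none entered through its high group alone. By size, 5 members were more than 2-fold lower on the log2(FPKM + 1) scale, against 7.72% of all genes. H19, IGF2 and DLK1, chosen for being lower under the same cytokines, enter both counts, so nothing about the set is read from them. MEST was the member whose direction differed between the contrasts: its inflamed mean was above the normal mean without PM10 and below it with PM10.

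**Figure D2:**
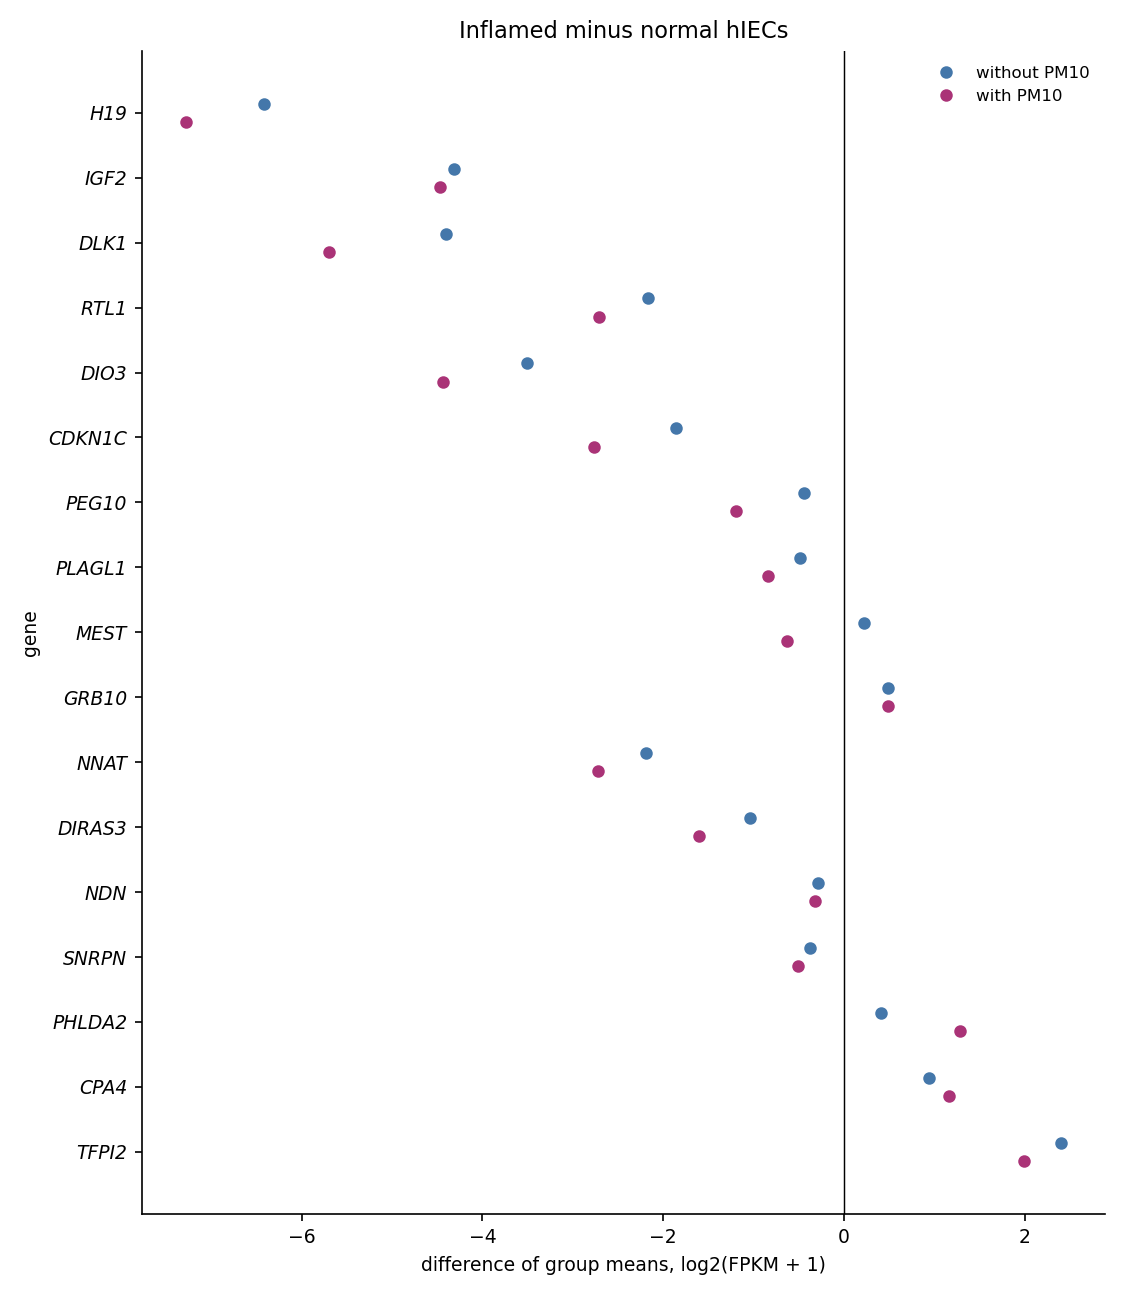
Difference of group means on the log2(FPKM + 1) scale, inflamed minus normal hIECs, without PM10 (blue) and with PM10 (magenta), for the 8 expressed members, RTL1 and DIO3 of the DLK1-MEG3 locus, and 7 further imprinted genes picked for display after their values were seen. H19 lies farthest left at -6.41 without and -7.28 with PM10, and TFPI2 lies farthest right at 2.40 and 1.99.

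The 3 expressed members at the H19-IGF2 and DLK1-MEG3 loci had the largest falls of the set. They were chosen for being lower under cytokines, so this ranking is a description and nothing about the loci is read from it. With PM10, the log2 differences of these 3 members ran from -7.28 to -4.46 with a median of -5.70. Those of the other 5 ran from -2.76 to 0.49 with a median of -0.84, and the median of all genes was -0.11. In the contrast without PM10, which chose them, the medians were -4.41, -0.45 and -0.03, respectively. Genes of the DLK1-MEG3 locus outside the set varied, with log2 differences in the PM10 libraries of -4.44 for DIO3, -2.71 for RTL1 and -0.77 for MEG9.

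The chromosomal neighbourhoods of the loci were examined next. Of 61 genes quantified within 500 kb of H19 or IGF2, 9 beside the members reached the filter. In the libraries with PM10, 4 of these 9 were called lower and 1 higher, which is near the 39.6% and 25.8% of all genes. Among the 4 lower ones, AC132217.1 and IGF2-AS, the transcripts overlapping IGF2, were listed at 0 in every inflamed library. They reached the filter through the normal libraries alone and had to differ, so their calls carry no weight and no fold is given. CD81, a tetraspanin gene that starts 371.6 kb from H19, fell by 0.70 on the log2 scale (adjusted p = 1.79e-05), and TSSC4 fell by 0.26 (adjusted p = 0.0328). DUSP8 rose by 0.27 (adjusted p = 0.0263). MRPL23, a mitochondrial ribosomal gene whose start lies at -57.3 kb from that of H19, differed by -0.17 (adjusted p = 0.107), and CTSD, a lysosomal protease gene, by 0.01 (adjusted p = 0.865).

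Around DLK1, the tested neighbours included genes on both sides that were lower under cytokines. Of 141 genes quantified within 500 kb of DLK1 or MEG3, 10 beside DLK1 reached the filter, and with PM10 8 of the 10 were called lower and 1 higher, beside 39.6% and 25.8% of all genes. Of the 8, RTL1 and LINC02285 were under 1 FPKM in all 4 libraries with cytokines. RTL1 reached the filter through the normal libraries alone, and LINC02285 through the normal libraries with PM10 alone. The direction of both was thus set by the filter, and their calls carry no weight. Without PM10, LINC02285 differed by -0.27 (limma adjusted p = 0.218). The difference from the 4 of 9 around H19-IGF2 was not tested. RTL1, the paternally expressed retrotransposon-like gene that starts 178 kb from DLK1, was at 7.32 and 7.42 FPKM in normal libraries with PM10 and at 0.264 and 0.287 FPKM in inflamed libraries with PM10. The latter values are close to the lowest above 0, and the log2 difference of -2.71 is given as a description. BEGAIN, whose start lies at -138.3 kb from that of DLK1, fell from 12.5 and 12.2 FPKM to 1.93 and 1.58 FPKM (log2 difference -2.28, adjusted p = 4.64e-07). SLC25A29 fell by 1.82, WDR25 by 1.06 and YY1 by 0.38 on the log2 scale (adjusted p = 1.61e-05, 3.92e-05 and 0.000516, respectively).

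WARS, an interferon-induced tryptophanyl-tRNA synthetase gene whose annotated start lies close to that of WDR25, was the exception and rose from 117.9 and 117.8 FPKM to 574 and 554 FPKM (log2 difference 2.25, adjusted p = 2.89e-08). MEG9 fell by 0.77 (adjusted p = 0.0202), a call lost under quantile normalization (0.0647), without normal with PM10 replicate 1 (0.0839), without its replicate 2 (0.0616) and without inflamed with PM10 replicate 1 (0.0973). AL132709.1 fell by 1.28 (adjusted p = 1.77e-05). LINC02285 was at 1.08 and 1.70 FPKM in normal and 0.557 and 0.418 FPKM in inflamed libraries with PM10. DIO3, the thyroid hormone-inactivating deiodinase gene at the far end of the imprinted domain and outside this window, fell from 74.2 and 72.5 FPKM to 2.24 and 2.64 FPKM, 30.1-fold (log2 difference -4.44, adjusted p = 1.23e-08).

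**Figure D3:**
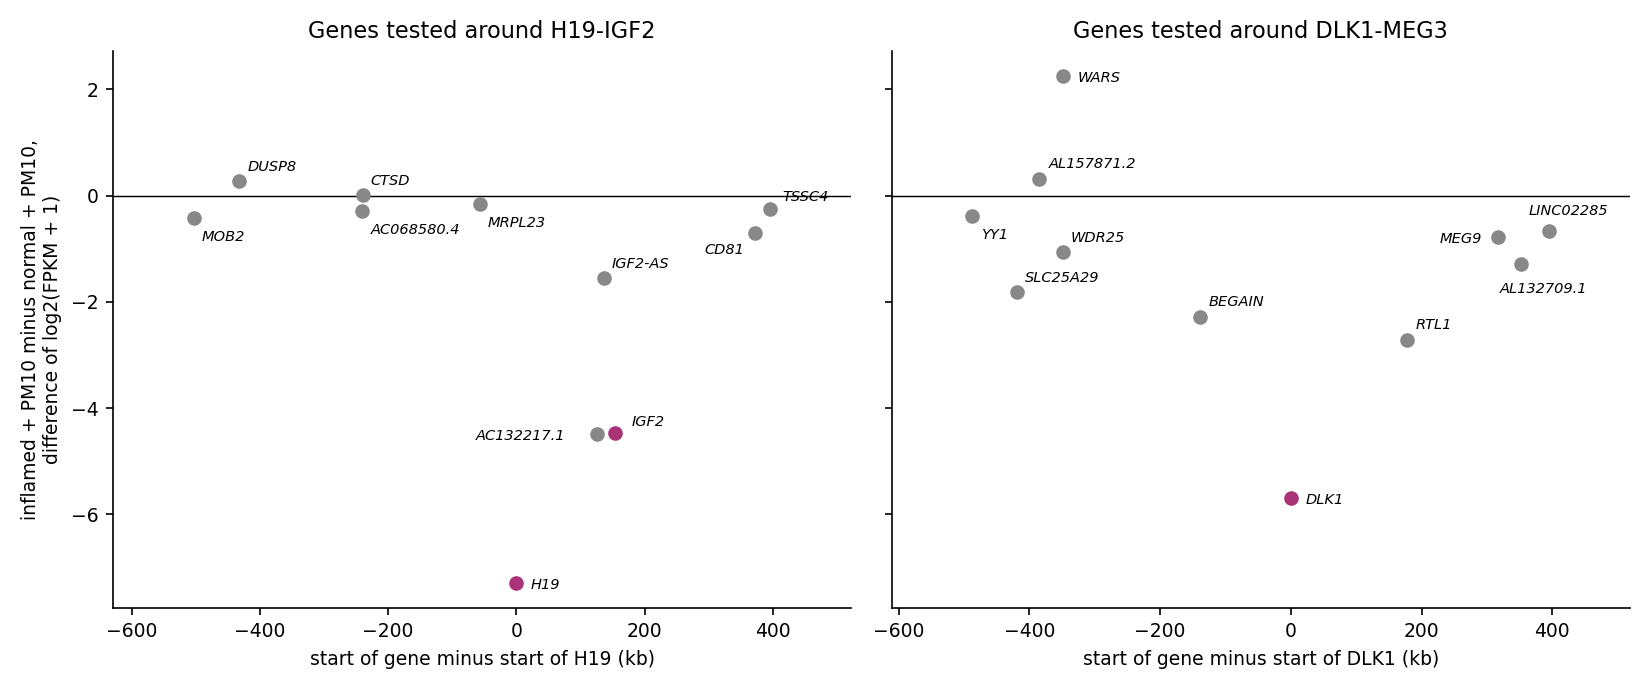
Difference of group means on the log2(FPKM + 1) scale, inflamed with PM10 minus normal with PM10, for every tested gene around H19-IGF2 (left) and DLK1-MEG3 (right), against the distance between gene starts in kb. Magenta points are members and grey points are other genes; H19 at -7.28 and DLK1 at -5.70 are the lowest in their panels, and WARS at 2.25 is the highest.

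In normal hIECs, PM10 went with lower means of H19 and IGF2 and a higher mean of DLK1, of which only the difference of H19 passed the test. This contrast shares the normal libraries with the one that chose the members. H19 fell from 1593 to 1009 FPKM, 1.58-fold (log2 difference -0.64, SE 0.152, adjusted p = 0.0447). That call did not survive several alternatives, among them median centring (0.0501), a fit to the groups compared alone (0.157), and leaving out normal replicate 2 (0.141), normal with PM10 replicate 1 (0.176) or 2 (0.151), or inflamed with PM10 replicate 1 (0.0806) or 2 (0.0808). IGF2 differed by -0.51 (adjusted p = 0.0554). The value was -0.75 without normal replicate 1 (0.00209) and -0.27 without replicate 2 (0.0475), both past the test, as it was under a filter of 5 FPKM (0.0374). DLK1 differed by 0.32 (adjusted p = 0.0866) and CDKN1C by 0.36 (adjusted p = 0.0960).

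MEST rose from 228 to 331 FPKM, 1.45-fold (log2 difference 0.54, SE 0.0571, adjusted p = 0.00352), a call lost only in the fit to these 2 groups alone (0.0941). PLAGL1 differed by 0.22, GRB10 by -0.09 and PEG10 by 0.004, none passing the test (adjusted p = 0.294, 0.574 and 0.998). Thus 1 of 8 expressed members was called higher and 1 lower, where 5.51% of all genes were called higher and 3.72% lower. In the DLK1-MEG3 neighbourhood 4 of 10 genes rose with PM10 and none fell: BEGAIN by 0.66, WARS by 0.63, RTL1 by 0.57 and WDR25 by 0.54 on the log2 scale (adjusted p = 0.00515, 0.000863, 0.00743 and 0.0157). All 4 calls were lost in the fit to these 2 groups alone (0.0660 to 0.112). Without normal with PM10 replicate 1 the calls of BEGAIN (0.0521) and RTL1 (0.0619) were lost, and without its replicate 2 those of RTL1 (0.0620) and WDR25 (0.0911). Around H19-IGF2, CTSD rose by 0.27 (adjusted p = 0.0262) and CD81 fell by 0.21 (adjusted p = 0.0475), the latter a call that was lost under quantile normalization (0.310) and without any single library other than normal replicate 1 (0.0574 to 0.186).

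In inflamed hIECs the means of all 8 expressed members were lower with PM10 than without it, as were those of 51.2% of all genes, and 5 passed the test, where 9.02% of all genes were called lower and 6.22% higher. This contrast shares the inflamed libraries with the one that chose the members. H19 fell from 17.7 to 5.48 FPKM, 3.22-fold (log2 difference -1.51, SE 0.152, adjusted p = 0.00144). DLK1 fell from 5.25 to 2.20 FPKM, 2.38-fold (log2 difference -0.97, SE 0.1002, adjusted p = 0.00156). The calls of H19 and DLK1 held in every alternative, with adjusted p up to 0.0183 and 0.0237. IGF2 fell 1.70-fold (adjusted p = 0.0181), CDKN1C 1.57-fold (adjusted p = 0.0221) and MEST 1.24-fold (adjusted p = 0.0132).

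These last 3 calls rested on having all libraries. IGF2 lost its call when any of the 4 inflamed libraries was left out: inflamed replicate 1 (0.0921), replicate 2 (0.0857), inflamed with PM10 replicate 1 (0.0769) or replicate 2 (0.0997). MEST lost it likewise, in the same order at 0.0884, 0.0596, 0.0767 and 0.0756. CDKN1C lost it without inflamed replicate 2 (0.116), without inflamed with PM10 replicate 2 (0.110) and in the fit to these 2 groups alone (0.0906). PEG10 differed by -0.74 (adjusted p = 0.0790), and the value was -1.13 without inflamed replicate 1 (0.0196) and -0.35 without replicate 2 (0.260). It also passed with the replicate number as a block (0.0322). PLAGL1 differed by -0.13 (adjusted p = 0.506) and GRB10 by -0.08 (adjusted p = 0.598), and both changed sign without inflamed replicate 2. Of the neighbours, AL132709.1 fell by 0.36 (adjusted p = 0.0428) near DLK1, a call lost without any single library other than inflamed with PM10 replicate 2 (0.0508 to 0.194), and CTSD rose by 0.27 (adjusted p = 0.0172) near H19.

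**Figure D4:**
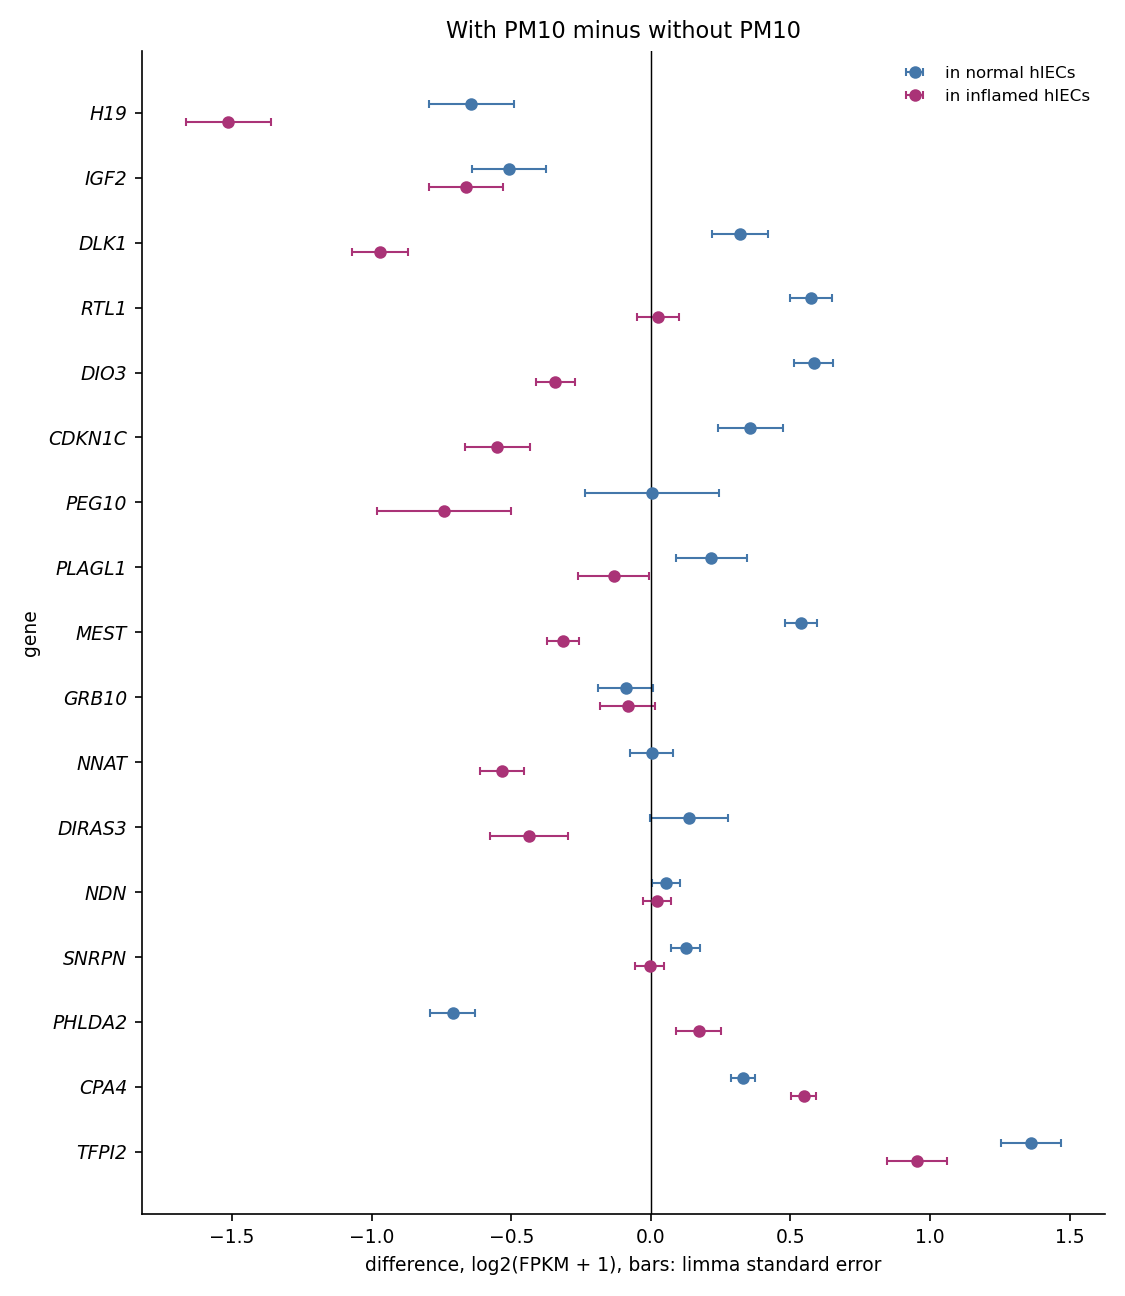
Difference on the log2(FPKM + 1) scale between libraries with and without PM10, in normal (blue) and inflamed (magenta) hIECs, for the same genes as in the plot of cytokine differences, with bars of 1 limma standard error. H19 is below 0 in both states, whereas DLK1, CDKN1C and MEST lie above 0 in normal and below 0 in inflamed hIECs.

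Whether the difference with PM10 was the same in both states was tested directly, as the PM10 difference in inflamed minus that in normal hIECs, which uses all 8 libraries including those that chose the members. DLK1, CDKN1C and MEST differed, at -1.29 (SE 0.142, adjusted p = 0.00408), -0.91 (SE 0.165, adjusted p = 0.0247) and -0.85 (SE 0.0807, adjusted p = 0.00219). These were 3 of 8 expressed members, where 4.48% of all genes were called in that direction and 2.11% in the other. In all 3, both PM10 libraries lay above both libraries without PM10 in normal hIECs, as for 37.3% of all genes, and below them in inflamed hIECs, as for 33.2% of all genes. The calls of DLK1 and MEST held in every alternative, with adjusted p up to 0.0279 and 0.0195. That of CDKN1C was lost without normal replicate 2 (0.0568), normal with PM10 replicate 1 (0.0654) or 2 (0.0898), inflamed replicate 2 (0.0775) or inflamed with PM10 replicate 2 (0.0700).

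For the other members the difference between states did not pass the test. H19 differed by -0.87 (SE 0.215, adjusted p = 0.0577), and passed under 5 alternative settings (0.0390 to 0.0496) and without normal replicate 2 (0.0262). IGF2 differed by -0.15 (adjusted p = 0.679), changed sign without normal replicate 1 and passed without normal replicate 2 (0.0294). PEG10 differed by -0.74, PLAGL1 by -0.35 and GRB10 by 0.01 (adjusted p = 0.240, 0.288 and 0.980). Among the DLK1-MEG3 neighbours 4 of 10 had a negative difference past the test and none a positive one, and none of the 9 around H19-IGF2 passed. Of all genes, 4.48% passed as negative and 2.11% as positive. Among the 4 neighbours, RTL1 was at 0.232 to 0.287 FPKM in the inflamed libraries, near the lowest value above 0, where PM10 could hardly lower it. Its difference between states is thus mainly its rise in normal hIECs, and its call carries no weight. WARS (-0.56, adjusted p = 0.00425) held in every alternative. BEGAIN (-0.78, adjusted p = 0.0109) was lost without normal with PM10 replicate 1 (0.0569) or 2 (0.0502) and without inflamed replicate 2 (0.0517). RTL1 (-0.55, adjusted p = 0.0298) was lost without any single library other than normal replicate 1 (0.0513 to 0.105), under quantile normalization (0.204), with a pseudocount of 0.1 (0.129) or 0.5 (0.0518) and with rescaling without mitochondrial genes (0.0547). SLC25A29 (-0.85, adjusted p = 0.0389) was lost without any single library other than normal with PM10 replicate 1 (0.0530 to 0.123). DIO3 differed by -0.93 (adjusted p = 0.00359) and held throughout.

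A wider list of 47 imprinted genes outside the members moved in both directions. Of the 31 that reached the filter, 17 were called lower and 8 higher by cytokines with PM10, beside 39.6% and 25.8% of all genes, and the median difference was -0.29 against -0.11 over all genes. Without PM10, 14 were called lower and 8 higher, where 30.3% and 25.9% of all genes were called lower and higher. Of the 17, IGF2-AS, L3MBTL1 and RTL1 were under 1 FPKM in all 4 cytokine libraries, and of the 8, ATP10A was so in all 4 libraries without cytokines. These 4 reached the filter through 1 state alone and had to differ. After DIO3, the largest differences with PM10 were those of NNAT, a paternally expressed gene of developing brain, which fell 8.42-fold to 2.95 and 3.28 FPKM (log2 difference -2.73, adjusted p = 1.79e-07), RTL1, and TFPI2, a placental protease inhibitor. TFPI2 rose from 18.4 and 15.2 FPKM to 70.7 and 68.7 FPKM, 4.14-fold (log2 difference 1.99, adjusted p = 4.12e-06). DIRAS3, a Ras-related growth suppressor, fell by 1.61 (adjusted p = 4.84e-05).

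TFPI2 also rose with PM10, 2.84-fold in normal (adjusted p = 0.00128) and 1.96-fold in inflamed hIECs (adjusted p = 0.00210), the former call being lost in the fit to these 2 groups alone (0.0823). With PM10 in normal hIECs, 4 of 31 rose and 1 fell, PHLDA2, a maternally expressed restrainer of placental growth, by 0.71 (adjusted p = 0.00449, and 0.0922 in the fit to these 2 groups alone). Of all genes, 5.51% were called higher and 3.72% lower there. In inflamed hIECs 2 rose and 3 fell, which is near the 6.22% and 9.02% of all genes. CPA4, a carboxypeptidase gene beside MEST, rose by 0.55 (adjusted p = 0.000618), NNAT fell by 0.53 (adjusted p = 0.00571), and DIO3 fell by 0.34 (adjusted p = 0.0194). The DIO3 call was lost without inflamed replicate 1 (0.104) or 2 (0.0797), without inflamed with PM10 replicate 1 (0.104) and in the fit to these 2 groups alone (0.0751). Between the states, 1 of 31 had a positive difference past the test, PHLDA2 at 0.88 (adjusted p = 0.00752), and 3 a negative one, DIO3, RTL1 and NNAT. RTL1 was near the lowest value above 0 in the inflamed libraries, so its call carries no weight. Of all genes, 2.11% had a positive and 4.48% a negative difference past the test. The call of NNAT (-0.54, adjusted p = 0.0330) was lost without any single library other than normal replicate 1 (0.0548 to 0.115).

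Within a library, DLK1 was at 2.60 and 2.82 times the FPKM of DIO3 in normal, 2.19 and 2.29 times in normal with PM10, 1.51 and 1.62 times in inflamed, and 1.12 and 0.722 times in inflamed with PM10 hIECs. The paternally expressed genes at the ends of the domain thus differed in how much of their level was left under cytokines.

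Genes that act with IGF2 were called in both directions under cytokines. Of 27 listed genes of ligands, receptors, binding proteins and regulators, 23 reached the filter, and with PM10 13 were called higher, 6 lower and 4 not, beside 25.8% higher and 39.6% lower over all genes. Without PM10, 10 were called higher, 4 lower and 9 not, beside 25.9% and 30.3% of all genes. PAPPA2, called lower in both, was under 1 FPKM in all 4 cytokine libraries and had to differ. IGFBP3, the main carrier of circulating IGF, rose from 343 and 338 FPKM to 3717 and 3757 FPKM, 10.97-fold (log2 difference 3.45, adjusted p = 1.28e-07). IGFBP7 rose by 2.24, HMGA2 by 1.74, HMGA1 by 1.38 and IGFBP5 by 1.19 on the log2 scale (adjusted p = 5.26e-07, 1.57e-06, 4.16e-06 and 4.25e-07). HMGA2 and HMGA1 encode chromatin proteins of fetal growth. IGFBP2, another IGF carrier, fell by 1.28 (adjusted p = 7.05e-07).

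With PM10 in normal hIECs 4 of these 23 changed, 2 in each direction, led by IGFBP7, which fell by 1.23 (adjusted p = 0.000580, and 0.0660 in the fit to these 2 groups alone). Over all genes, 5.51% were called higher and 3.72% lower. In inflamed hIECs 7 rose and 1 fell with PM10, beside 6.22% and 9.02% of all genes. Among the 7, the receptor gene IGF1R and HMGA2 lost their calls without any single inflamed library, with or without PM10. HMGA2 also lost its call without the trend (adjusted p = 0.0515). PAPPA, a protease that cleaves IGF carriers, rose by 1.08 (adjusted p = 0.000606), IGFBP3 by 0.82 (adjusted p = 0.00194) and IGFBP5 by 0.72 (adjusted p = 0.000169), and IGFBP2 fell by 0.48 (adjusted p = 0.00144). The difference between states was positive and past the test for 7 of 23 and negative for none, led by IGFBP7 at 1.31 (adjusted p = 0.00178) and PAPPA at 1.07 (adjusted p = 0.00459). Over all genes it passed as positive for 2.11% and as negative for 4.48%.

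Of 15 Notch pathway genes listed as partners of DLK1, 9 reached the filter, and 5 were called lower and 3 higher under cytokines with PM10, beside 39.6% and 25.8% of all genes. Of the 5, the target gene HEY1 and DLK2, the relative of DLK1, were under 1 FPKM in all 4 cytokine libraries. They reached the filter through the normal libraries alone, which favours a lower level under cytokines, so their calls carry no weight. HEY1 was at 5.31 and 4.74 FPKM in normal and 0.305 and 0.309 FPKM in inflamed libraries with PM10. HES1, another target gene, fell from 49.3 and 48.1 FPKM to 17.8 and 18.8 FPKM (log2 difference -1.37, adjusted p = 9.50e-07). The receptor NOTCH2 rose by 0.95 (adjusted p = 2.54e-05), NOTCH1 fell by 0.83 (adjusted p = 0.000112), and the ligand JAG1 rose by 0.69 (adjusted p = 0.000299). Without PM10, 6 were called lower, HEY1 and DLK2 again among them, and 2 higher, beside 30.3% and 25.9% of all genes, and JAG1 was among the lower ones at -0.72 (adjusted p = 0.000323). JAG1 fell with PM10 in normal hIECs by 0.86 (adjusted p = 0.00304) and rose with it in inflamed hIECs by 0.55 (adjusted p = 0.00767), and the difference between states was 1.41 (adjusted p = 0.00178). Its fall was lost in the fit to these 2 groups alone (0.0922) and its rise without inflamed replicate 1 (0.0572) or inflamed with PM10 replicate 2 (0.0578). In all, with PM10 1 of the 9 rose and 1 fell in normal hIECs and 3 rose in inflamed hIECs, and 2 differed between the states. Beside JAG1, the 3 rises were those of NOTCH2 and NOTCH3. NOTCH2 lost its call without any single inflamed library, with or without PM10, and NOTCH3 without any of them but inflamed with PM10 replicate 2. Over all genes, 5.51% rose and 3.72% fell in normal hIECs, and 6.22% rose in inflamed hIECs. Between the states, 2.11% of all genes had a positive and 4.48% a negative difference past the test.

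Of 24 genes listed for the upkeep of imprints, 16 reached the filter, and 8 were called lower and 3 higher by cytokines with PM10, beside 39.6% and 25.8% of all genes. Without PM10 it was 5 and 3, which is near or below the 30.3% and 25.9% of all genes, so nothing particular to the list is read from these counts. DNMT3A, a de novo DNA methyltransferase, was at 8.67 and 10.1 FPKM in normal libraries with PM10 and at 2.96 and 4.16 FPKM in inflamed libraries with PM10 (log2 difference -1.20, adjusted p = 0.00113). DNMT3B fell by 0.69, SETDB1 by 0.68, TET3 by 0.47 and TRIM28 by 0.44 (adjusted p = 0.00128, 0.00147, 0.00186 and 7.52e-05). UHRF1, which guides maintenance methylation in dividing cells, rose by 0.78 (adjusted p = 2.50e-05). With PM10 1 of the 16 fell in each state, where 3.72% of all genes fell in normal and 9.02% in inflamed hIECs. None differed between the states past the test, where 4.48% of all genes had a negative and 2.11% a positive difference. UHRF1 fell by 0.31 in normal hIECs (adjusted p = 0.0249), a call lost without any single library other than normal replicate 1 (0.0505 to 0.126). DNMT3B fell by 0.44 in inflamed hIECs (adjusted p = 0.0426), likewise lost without any single library other than inflamed replicate 2 (0.05004 to 0.187).

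The genes most like H19, IGF2 and DLK1 were named by Pearson's r of log2(FPKM + 1) over the 8 libraries. These values are descriptive: the 8 libraries fall into 2 sets by cytokines, so a gene that differs between them reaches a high r, and 214, 193 and 231 of 14205 other genes tested had r of 0.99 or more with H19, IGF2 and DLK1. Closest to H19 were NRBP2, BOLA1, ZNF540, H3F3AP4 and DIO3OS, with r from 0.9987 to 0.9996, and IGF2 was at rank 12. Closest to IGF2 were ZNF540, ARHGEF25, CIRBP, DANCR and NCALD, with r from 0.9983 to 0.9993, and H19 was at rank 8. Closest to DLK1 were B3GALT1, BARX2, XXYLT1, ZCCHC24 and DGAT1, with r from 0.9982 to 0.9987. DIO3OS, the transcript antisense to DIO3, was at 18.4 and 24.7 FPKM in normal, 18.2 and 19.6 FPKM in normal with PM10, 1.99 and 1.76 FPKM in inflamed, and 0.704 and 0.858 FPKM in inflamed libraries with PM10. Its normal libraries with and without PM10 overlapped, whereas those of DIO3 did not. MEG3 has no such list because it was at 0 throughout.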

How the data were processed

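The authors trimmed the paired-end reads with Cutadapt and Sickle, aligned them to hg38 with HISAT2 and quantified genes with StringTie, and deposited 1 table of FPKM values per library, per the labels and the methods of the study. The annotation release is not given in the sources used here. Groups came from the labels, and no columns were left out.

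FPKM values were analysed as log2(FPKM + 1), and genes that reached 1 FPKM in 2 or more libraries were kept. All 4 groups entered 1 fit in limma 3.58.1 under R 4.3.3, the prior variance following mean expression, and p-values were adjusted by Benjamini-Hochberg over all 14206 genes, with 0.05 as the threshold. A fold is a ratio of mean FPKM, and a log2 difference is on the log2(FPKM + 1) scale, which understates the change of low genes. The fit was tested on simulated data. Tables and figures were made in Python 3.11.15.

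The members, gene lists (imprinted genes, IGF pathway, Notch partners, imprint maintenance, cell markers), neighbour window and motifs were chosen with earlier results of these data known. All members are named, and for each list up to 6 called genes, those with the largest difference first, with others named where a call was lost. Positions are from GENCODE release 44, which held 99.5% of the gene IDs. Alternatives were other pseudocounts (0.1 and 0.5), filters (any value above 0, or 5 FPKM), scalings (median centring, quantile normalization, rescaling without mitochondrial genes), no trend, a replicate block, a fit to the groups compared, and leaving out each library. FPKM hold no read depth, so precision is given by the 2 libraries per group only.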

Additional observations from a re-analysis of the deposited data

Results flagged for a closer look

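For 3 imprinted growth genes the PM10 difference was not the same in the normal and the inflamed state, by limma's test of the difference itself. DLK1 had a PM10 difference of 0.32 in normal and -0.97 in inflamed hIECs on the log2(FPKM + 1) scale, which differ by -1.29 (adjusted p = 0.00408). MEST had 0.54 and -0.31, which differ by -0.85 (adjusted p = 0.00219). CDKN1C had 0.36 and -0.55, which differ by -0.91 (adjusted p = 0.0247). The test uses all 8 libraries, including those that chose the members. In normal hIECs alone the PM10 difference did not pass limma's test for DLK1 (adjusted p = 0.0866) or CDKN1C (adjusted p = 0.0960). The CDKN1C call between the states was lost when certain single libraries were left out. No explanation was tested.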

How the results depend on the processing

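All 8 expressed members kept their direction and call for cytokines with PM10 under every alternative, 7 of 7 where a filter of 5 FPKM left out GRB10, and the 4 members more than 2-fold lower without PM10 remained 4 throughout, with DLK1 at -4.62 under a pseudocount of 0.1. For PM10 in normal hIECs, the number of members called was 2, and it was 1 under a pseudocount of 0.1, no filter beyond 0, median centring and no trend, 0 in the fit to the groups compared, 3 under the 5 FPKM filter, and from 1 to 3 when single libraries were left out. For PM10 in inflamed hIECs it was 5, and from 2 to 5 when single libraries were left out. For the difference between states it was 3, and from 2 to 4. PEG10 changed sign for PM10 in normal hIECs under median centring (-0.0507) and quantile normalization (-0.0334), and ran from -0.20 to 0.206 when single libraries were left out. For PM10 in inflamed hIECs, leaving out single libraries moved GRB10 between -0.188 and 0.0227 and PLAGL1 between -0.284 and 0.018. For the difference between states it moved IGF2 between -0.389 and 0.0849 and GRB10 between -0.0974 and 0.113. The cause was not tested. Replicate numbers did not mark a pairing: deviations of same-numbered libraries correlated at -0.002 to 0.079 across genes. With the replicate block, the members called were 1 for PM10 in normal and 6 for PM10 in inflamed hIECs. A fit to the groups compared alone could not be made for the difference between states. With 2 libraries a group and no counts, 1 library can set a call, and among the members PEG10 had the largest standard error (0.240).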
